A study of Mus musculus with 6 samples.

Results

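Sarcoplasmic reticulum calcium cycling genes, 10 in number, were followed in the ventricles of paced and sham mice: Atp2a2, Pln, Ryr2, Casq2, Slc8a1, Jph2, Trdn, Hrc, Asph and S100a1. They were chosen by name, and each has 1 row among the 24239 rows of the per-mouse expression table. The paced group was 3 male C57BL/6 mice after 8 days of atrial pacing, and the sham group was 3 male C57BL/6 mice that were not paced, all aged 8 to 10 weeks. An electrode catheter in the esophagus, which lies against the atria, set beats 80 ms apart during 45 min of each session, with 3 min of beats 120 ms apart before and after. There were 5 daily sessions, a break of 2 days and then 3 more sessions. Ventricular rate during pacing is not in the labels. The comparison asks which ventricular transcripts differ afterwards. The tissue is whole ventricle, so the values mix all its cell types.

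In each heartbeat a little calcium enters the cardiac muscle cell and releases a larger store from the sarcoplasmic reticulum through the ryanodine receptor. Relaxation follows when the pump SERCA2 returns calcium to the store and the sodium-calcium exchanger removes it across the cell membrane. Inside the store calcium is held by buffer proteins, and anchoring proteins keep the release channels facing the membrane. In heart failure models a low SERCA2 level and a high ratio of phospholamban to SERCA2 are well known, and inherited faults in several of these genes cause arrhythmia.

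The series holds 1 FPKM value per gene and mouse, a count of sequenced fragments scaled to transcript length and library size. The effective depth read from the steps of the lowest values was 7740000 to 8910000 fragments in paced mice and 6280000 to 7890000 in sham mice. Every member is abundant against this depth. The least abundant, Slc8a1, had at least 115.6 fragments per kb of effective length, where counting error over a stretch of 1 kb amounts to 9.3%. For Pln the least was 29275.9 fragments per kb, with a counting error of 0.58% over 1 kb. The counting error of the whole level depends on the length of the transcript and was not computed. Intervals and errors of this kind cover counting only. Fold changes are differences of mean log2(FPKM + 1), pacing minus sham, and adjusted p-values are from limma with Benjamini-Hochberg adjustment over 11994 genes. Levels are mean FPKM ± SD over 3 mice in each group.

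As deposited, each of the 10 genes had a lower mean in paced than in sham ventricles, by between 2.75% for Jph2 and 18.8% for Ryr2, and none passed the adjusted test. Rescaled to the same sum, centred on medians or quantile normalized, 9 or 10 of the 10 log2 fold changes stayed negative. However, 9 of the 10 were positive when the libraries were scaled to ventricular muscle markers. As deposited the markers were lower too, with a median log2 fold change of -0.29, so this scaling raised the members by construction. It was chosen after seeing the data and also moved the median of all genes tested to 0.23. With limma 0 of 10 members were called, and 0% of all genes were called in either direction (lowest adjusted p of a member = 0.553, for Casq2). At an unadjusted p under 0.05, 1 of 10 members was lower and 0 were higher, against 3.69% of all genes lower and 5.17% higher. The 3 paced values lay below the 3 sham values for 1 of 10 members, against 6.97% of all genes tested. None of the 10 members was called in the authors' deposited table, which calls 1.23% of its genes higher and 0.152% lower. A negative fold change in 10 of 10 members stands beside 51.8% of all genes tested and 63.2% of the 3417 genes at or above the mean level of the lowest member. The median log2 fold change was -0.17 over the members and -0.01 over all genes tested.

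**Figure D1:**
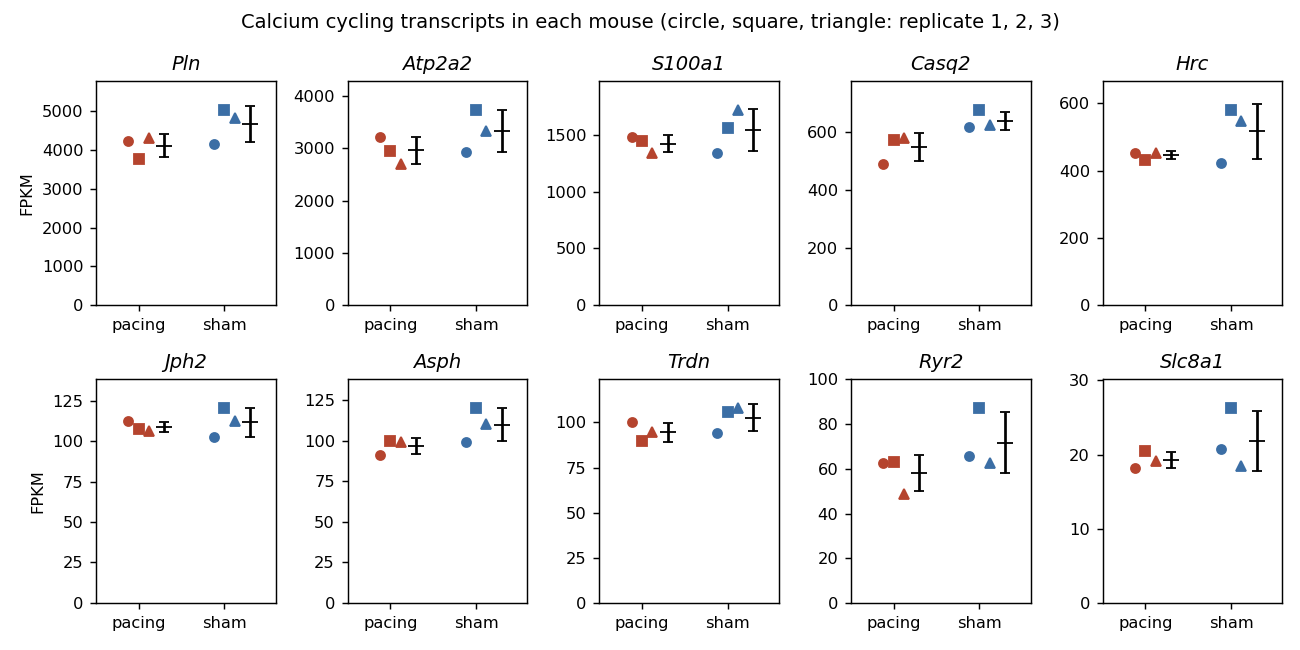
FPKM of the 10 calcium cycling genes in each mouse, paced mice in red on the left and sham mice in blue on the right of each panel, with the mean and SD in black (n = 3 each) and every axis starting at 0. As deposited the paced means are all below the sham means. When libraries are scaled to ventricular muscle markers, 9 of 10 differences turn positive. That scaling, chosen after seeing the data, also raises the median log2 fold change of all genes tested to 0.23. As deposited the groups overlap except for Casq2, at 491 to 579 FPKM in paced mice and 620 to 676 FPKM in sham mice.

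Atp2a2 encodes SERCA2, the pump that refills the sarcoplasmic reticulum. It had 3213, 2957 and 2711 FPKM in paced mice 1, 2 and 3, against 2926, 3729 and 3342 FPKM in sham mice 1, 2 and 3. Sham 1 lay among the paced mice, so the groups overlapped. The mean was 2960 ± 251 FPKM in paced mice and 3332 ± 402 FPKM in sham mice, a log2 fold change of -0.17 (SE 0.12, 95% limits -0.45 to 0.11, limma adjusted p = 0.749). The row covers all SERCA2 transcripts, so the cardiac form SERCA2a and the general form SERCA2b are not separated. In mm10 the gene lies at chr5:122453513-122502225 on the minus strand.

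Pln encodes phospholamban, the small membrane protein that holds SERCA2 back until it is phosphorylated, and was the most abundant member. It had 4248, 3782 and 4322 FPKM in paced mice 1, 2 and 3, against 4152, 5028 and 4823 FPKM in sham mice 1, 2 and 3. Again sham 1 lay within the paced range, while sham 2 and sham 3 stood above all paced mice. The mean was 4117 ± 293 FPKM in paced mice and 4668 ± 458 FPKM in sham mice (log2 fold change -0.18, SE 0.12, limma adjusted p = 0.706). RefSeq places Pln at chr10:53337686-53345999 on the plus strand of GRCm38, inside the span of Cep85l on the other strand. The deposited table gives both genes 1 merged locus, and Cep85l reached at most 4.07 FPKM.

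The balance between the inhibitor and the pump was compared inside each mouse, where the scaling of the libraries cancels. The level of Pln over that of Atp2a2, as a ratio of FPKM, was 1.32, 1.28 and 1.59 in paced mice 1, 2 and 3, against 1.42, 1.35 and 1.44 in sham mice 1, 2 and 3. Paced mice lay on both sides of the sham range. On the log2 scale the ratio averaged 0.48 ± 0.17 in paced mice and 0.49 ± 0.051 in sham mice, a difference of -0.012 (exact two-sided permutation p = 0.9, adjusted over 6 ratios 0.9). The smallest p that 3 against 3 mice allow is 0.1. Sarcolipin, Sln, the regulator of the pump that is made in atrial muscle, had 464, 1410 and 982 FPKM in paced mice 1, 2 and 3, against 934, 12.2 and 359 FPKM in sham mice 1, 2 and 3. The atrial light chain gene Myl7 had 1141, 3520 and 2358 FPKM in the same paced mice and 2700, 31.4 and 966 FPKM in the same sham mice, so for both genes pacing 2 was the highest mouse and sham 2 the lowest. The part of atrial tissue in the Sln values was not tested.

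Ryr2, at chr13:11553103-12106945 on the minus strand, encodes the ryanodine receptor through which the store releases calcium. It had 62.7, 63.1 and 48.9 FPKM in paced mice 1, 2 and 3, against 65.5, 87.2 and 62.5 FPKM in sham mice 1, 2 and 3. Sham 2 stood far above the other mice, pacing 3 stood below them, and the other 4 lay between 62.5 and 65.5 FPKM. The mean was 58.2 ± 8.09 FPKM in paced mice and 71.8 ± 13.5 FPKM in sham mice, with the largest log2 fold change of the members in size as deposited, and the smallest with the marker scaling (-0.29, SE 0.15, 95% limits -0.63 to 0.05, limma adjusted p = 0.639). Without sham 2 the log2 fold change was -0.14 and without pacing 3 it was -0.17, and neither passed (limma adjusted p = 0.878 and 0.899).

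Triadin, Trdn, at chr10:33083483-33476709 on the plus strand, links the release channel to the calcium buffer inside the store. It had 99.99, 89.5 and 94.4 FPKM in paced mice 1, 2 and 3, against 94.1, 106 and 108 FPKM in sham mice 1, 2 and 3. Sham 1 lay below pacing 1 and pacing 3, so the groups overlapped (log2 fold change -0.11, SE 0.086, limma adjusted p = 0.751). The deposited table gives Trdn 1 locus with D830005E20Rik, which lies on the other strand and had 9.29 to 12.9 FPKM in paced mice and 13.3 to 16.8 FPKM in sham mice. Asph, which RefSeq places at chr4:9449085-9669344 on the minus strand, encodes aspartate beta-hydroxylase and, from the same gene, junctin, the other protein that ties the buffer to the channel. Its values cannot separate these products, and Clvs1, which overlaps it on the other strand and shares 1 merged locus with it in the deposited table, reached at most 0.418 FPKM. It had 91.4, 100.2 and 99.0 FPKM in paced mice 1, 2 and 3, against 99.6, 120 and 111 FPKM in sham mice 1, 2 and 3. Only pacing 2 lay above the lowest sham mouse, by under 1 FPKM (log2 fold change -0.18, SE 0.091, limma adjusted p = 0.636). Junctophilin 2, Jph2, at chr2:163336242-163397993 on the minus strand, bridges the cell membrane and the sarcoplasmic reticulum and differed least as deposited, but most with the marker scaling. It had 112, 107 and 106 FPKM in paced mice 1, 2 and 3, against 103, 120 and 112 FPKM in sham mice 1, 2 and 3, so that all 3 paced values lay inside the sham range (log2 fold change -0.04, SE 0.084, 95% limits -0.23 to 0.15, limma adjusted p = 0.932).

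Casq2, at chr3:102086455-102146512 on the plus strand, encodes cardiac calsequestrin, the main calcium buffer of the store. It was the member whose groups did not overlap, with 491, 572 and 579 FPKM in paced mice 1, 2 and 3, against 620, 676 and 626 FPKM in sham mice 1, 2 and 3. The mean was 548 ± 48.7 FPKM in paced mice and 641 ± 31.1 FPKM in sham mice, 14.6% lower as deposited. Its log2 fold change was -0.23 (SE 0.095, 95% limits -0.45 to -0.01), and it did not pass over all genes (limma adjusted p = 0.553). Scaled to ventricular muscle markers the log2 fold change of Casq2 was 0.04. Hrc, at chr7:45335269-45338972 on the plus strand, encodes the histidine-rich calcium binding protein, the other buffer among the members. It had 451, 432 and 454 FPKM in paced mice 1, 2 and 3, against 423, 580 and 548 FPKM in sham mice 1, 2 and 3. The paced mice lay close together, with a coefficient of variation of 2.68%, against 16.0% in sham mice, where sham 1 was the lowest of all 6 (log2 fold change -0.20, SE 0.12, limma adjusted p = 0.681). Without sham 1 the log2 fold change of Hrc was -0.34 (limma adjusted p = 0.121), the lowest adjusted p of any member in any setting.

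Slc8a1, at chr17:81373105-81738387 on the minus strand, encodes NCX1, the sodium-calcium exchanger of the cell membrane, and had the lowest level. It had 18.2, 20.4 and 19.2 FPKM in paced mice 1, 2 and 3, against 20.7, 26.3 and 18.4 FPKM in sham mice 1, 2 and 3. Sham 2 stood apart and the other 5 mice lay between 18.2 and 20.7 FPKM. The log2 fold change was -0.16 (SE 0.13, limma adjusted p = 0.772), and without sham 2 it was -0.019. S100a1, at chr3:90511034-90514330 on the minus strand, encodes a small calcium sensor that acts on the pump and the release channel. It had 1483, 1443 and 1337 FPKM in paced mice 1, 2 and 3, against 1343, 1563 and 1715 FPKM in sham mice 1, 2 and 3, with sham 1 inside the paced range (log2 fold change -0.11, SE 0.11, limma adjusted p = 0.811).

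For 2 members the promoter letters are shown from RefSeq on GRCm38.p6, namely the member without overlap between groups and the most abundant one. The lines give the 250 bases before the start of transcription, 5′ to 3′ on the strand of the gene, which is plus for both. Casq2 is at chr3:102086165-102086414 and Pln at chr10:53337436-53337685. Positions count from the RefSeq start, which for Casq2 is 102086415, upstream of the deposited start of 102086455 given above. Capitals mark the motifs that were found, which are a MEF2 box in Casq2 and, in Pln, TATAAA as well as the motif GATAAG.
Casq2: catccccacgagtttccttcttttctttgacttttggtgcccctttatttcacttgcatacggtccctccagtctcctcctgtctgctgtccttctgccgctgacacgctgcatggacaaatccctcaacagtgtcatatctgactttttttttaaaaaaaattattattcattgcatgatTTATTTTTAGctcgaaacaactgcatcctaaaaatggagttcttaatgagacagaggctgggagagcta
Pln: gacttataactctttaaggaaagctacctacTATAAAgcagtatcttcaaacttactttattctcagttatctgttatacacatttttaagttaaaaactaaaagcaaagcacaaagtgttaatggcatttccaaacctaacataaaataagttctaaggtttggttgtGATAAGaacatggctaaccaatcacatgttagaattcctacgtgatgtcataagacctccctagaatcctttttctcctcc
The MEF2 box of Casq2 lies 69 to 60 bases before the start. In Pln TATAAA lies 219 to 214 bases and GATAAG 81 to 76 bases before it. Both strands of 250 bases were searched in the 7 members that the table holds, for the MEF2 box and the CArG box, named for the muscle factors MEF2 and SRF, and for 4 short motifs. The MEF2 box was in 1 of 7 members and in 3.01% of 27025 promoters, and the CArG box was in 0 of 7 and in 1.4%. GATAAG was in 2 of 7 members, Pln and Slc8a1, and in 6.6% of promoters, and TATAAA was in 1 of 7 and in 13.0%. The motif GGGCGG was in 2 of 7, Jph2 and Hrc, and in 32.9% of promoters. The motif CAGCTG was in the same 2 members and in 12.8% of promoters. No 2 of these matches overlap in Casq2 or Pln. These are matches of letters and no measure of binding.

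**Figure D2:**
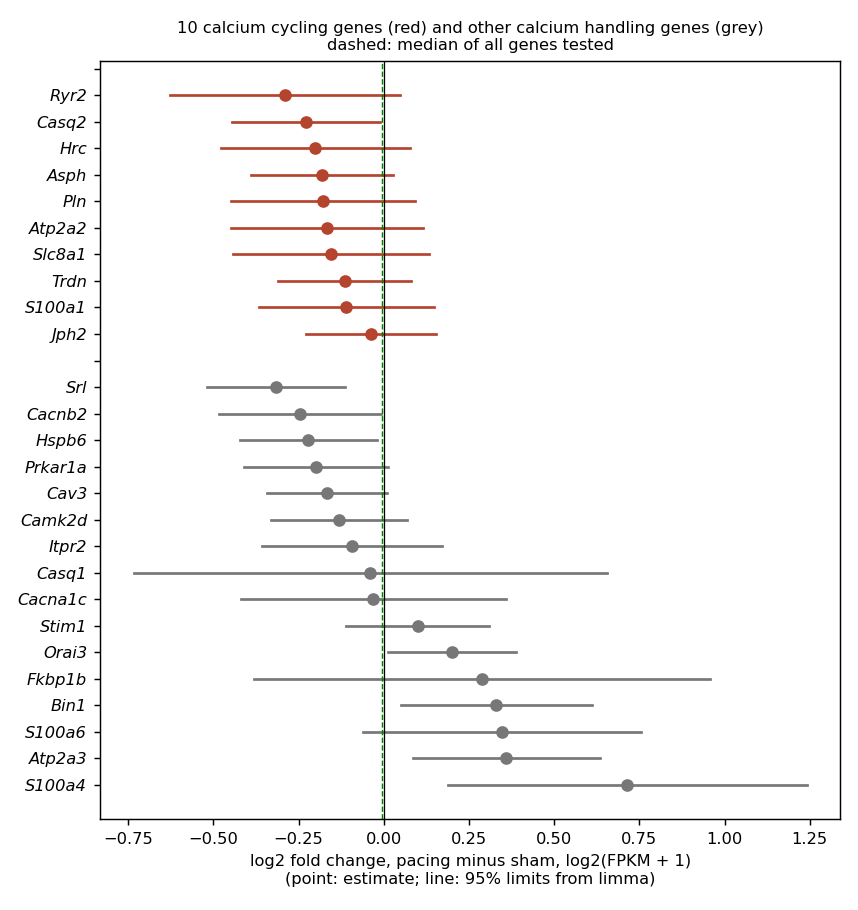
Log2 fold change, pacing minus sham, of the 10 calcium cycling genes in red and of other calcium handling genes in grey, with 95% limits from limma, and the median of all genes tested as a dashed line at -0.01. As deposited the limits of all members but Casq2 include 0 and none passed the adjusted test. When scaled to ventricular muscle markers, 9 of 10 members turn positive. That scaling, chosen after seeing the data, also raises the median of all genes tested to 0.23. Sln, at 2.39, is off this scale and not drawn.

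Ratios between members were also compared inside each mouse, with an exact two-sided permutation test and adjustment over 6 ratios. The ratio of Jph2 to Ryr2 differed most, at 1.79, 1.70 and 2.18 in paced mice 1, 2 and 3, against 1.56, 1.38 and 1.80 in sham mice 1, 2 and 3. Sham 3 lay above pacing 1 and pacing 2, so the groups overlapped. Its log2 values averaged 0.91 ± 0.19 in paced mice and 0.65 ± 0.19 in sham mice, a difference of 0.26 (exact permutation p = 0.3, adjusted 0.9). For Trdn over Ryr2 and S100a1 over Ryr2 the log2 differences were 0.18 and 0.18 (exact permutation p = 0.5 for both, adjusted 0.9). For Casq2 over Ryr2 and Slc8a1 over Atp2a2 they were 0.065 and 0.0050 (exact permutation p = 0.9 for both, adjusted 0.9). Leaving out 1 mouse moved the 3 largest of these differences by over 1.5 times. Jph2 over Ryr2 was 0.16 without sham 2 and ran from 0.15 to 0.35, Trdn over Ryr2 was 0.053 without sham 2 and 0.31 without sham 3, and S100a1 over Ryr2 was 0.049 without sham 2 and 0.36 without sham 3. With 3 mice a group the design cannot pass 0.05, so these values describe the spread and do not show that the ratios are equal.

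**Figure D3:**
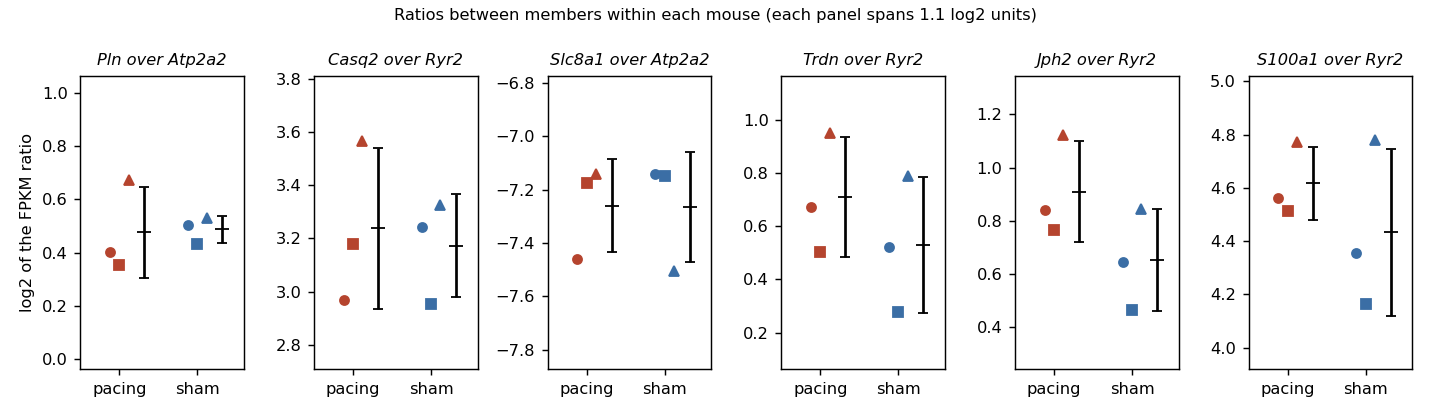
Log2 of the FPKM ratio between pairs of members within each mouse, paced mice in red on the left and sham mice in blue on the right, with the mean and SD in black (n = 3 each) and 1.1 log2 units in every panel. The groups overlap in all 6 ratios, and Pln over Atp2a2 averages 0.48 in paced mice and 0.49 in sham mice.

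The 10 genes together summed to 10271, 9567 and 9771 FPKM in paced mice 1, 2 and 3, against 9847, 12036 and 11465 FPKM in sham mice 1, 2 and 3. As deposited the mean sum was 9870 ± 362 FPKM in paced mice and 11116 ± 1135 FPKM in sham mice, or 1.46% ± 0.066 and 1.56% ± 0.12 of all FPKM (SD, n = 3 each). In summed FPKM sham 1 stood within the paced range and sham 2 and sham 3 above it. As a share of all FPKM the members took 1.52%, 1.39% and 1.48% in paced mice 1, 2 and 3, against 1.47%, 1.70% and 1.52% in sham mice 1, 2 and 3, so that on this measure only sham 2 stood above the paced mice. Sham 2 was the highest of the 6 mice for 8 of 10 members and sham 3 for the other 2, while sham 1 was the lowest for 2, Jph2 and Hrc. Without sham 1, 5 of 10 members were lower at an unadjusted p under 0.05, when 733 of 11975 genes were lower and 994 higher, and none passed the adjusted test. The median log2 fold change of the members was -0.25 without sham 1 and -0.10 without sham 2. Single mice also moved single members. Atp2a2 was at -0.26 without sham 1 and -0.08 without sham 2, and Asph at -0.25 and -0.11 without the same mice. Pln was at -0.12 without pacing 2, Trdn at -0.18 without sham 1 and -0.08 without pacing 2, and S100a1 at -0.21 without sham 1 and -0.03 without sham 3. Casq2 kept between -0.27 and -0.15, the last without pacing 1. Over the 6 mice the median Pearson r between members was 0.67 over 45 pairs (range 0.049 to 0.93), where the points share library, depth and dissection. No such value was computed for pairs of other genes, so it does not set the members apart. The 3 genes most like Atp2a2 over the 6 mice were Adck3, Grsf1 and Prdx3 (r = 0.998, 0.996 and 0.992), and those most like Ryr2 were Trim55, Anapc16 and Cpsf1 (r = 0.983, 0.978 and 0.977). Values this high are the highest among 11994 genes over only 6 points.

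Marker genes of several cell types also differed between these mice, while the makeup of the tissue itself was not measured. The 9 ventricular muscle markers, all detected, summed to 60292, 62849 and 61850 FPKM in paced mice 1, 2 and 3, against 63593, 78244 and 83383 FPKM in sham mice 1, 2 and 3. All 9 had a negative log2 fold change as deposited, with a median of -0.29, against -0.17 for the calcium cycling genes. Among them the ventricular light chain gene Myl2 averaged 25940 ± 606 FPKM in paced mice and 34040 ± 6432 FPKM in sham mice. The 8 atrial markers summed to between 5789 and 14768 FPKM in paced mice and to 12752, 435 and 5336 FPKM in sham mice 1, 2 and 3. The 7 adipocyte markers summed to 585, 332 and 290 FPKM in paced mice 1, 2 and 3, and to 247, 25.1 and 12.7 FPKM in sham mice 1, 2 and 3, with Adipoq at 27.0, 2.14 and 1.94 FPKM in those sham mice. Lung and airway markers, 7 in number, summed to 2.44, 313 and 1718 FPKM in paced mice 1, 2 and 3 and to at most 4.96 FPKM in sham mice, the surfactant gene Sftpc among them at 153 and 430 FPKM in pacing 2 and pacing 3. Smooth muscle markers (Myh11, Acta2, Cnn1, Tagln and Des) summed to 760.1 to 843 FPKM in paced mice and 679 to 847 FPKM in sham mice. Of these 5, 4 were higher at an unadjusted limma p under 0.05 and 3 without overlap, against 5.17% and 6.24% of all genes tested. Their median log2 fold change was 0.82, and 1 of the 5 was negative. Endothelial markers summed to 180 to 211 FPKM in paced mice and 199 to 231 FPKM in sham mice. All 4 of them were negative, 2 at an unadjusted limma p under 0.05 and 1 without overlap, against 3.69% and 6.97% of all genes tested. Fast skeletal muscle markers summed to 12.1 to 14.8 FPKM in paced mice and 9.07 to 13.5 FPKM in sham mice, and slow skeletal muscle markers to 30.4 to 31.7 FPKM in paced mice and 33.1 to 37.6 FPKM in sham mice. Red cell markers stood at 159 to 323 FPKM in paced mice and 85.1 to 140.1 FPKM in sham mice, but went both ways. Of the 4 tested, 3 were higher at an unadjusted limma p under 0.05 and 2 without overlap, against 5.17% and 6.24% of all genes tested. The remaining 1 was negative, and the log2 fold changes ran from -1.36 to 3.67. Of the 5 red cell markers 4 were in the table and 1 was not analysed here, and every other listed marker had a value above the floor in at least 1 mouse. Their part in the values of the members was not tested. In whole tissue fewer muscle cells and less of a transcript per muscle cell cannot be told apart.

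**Figure D4:**
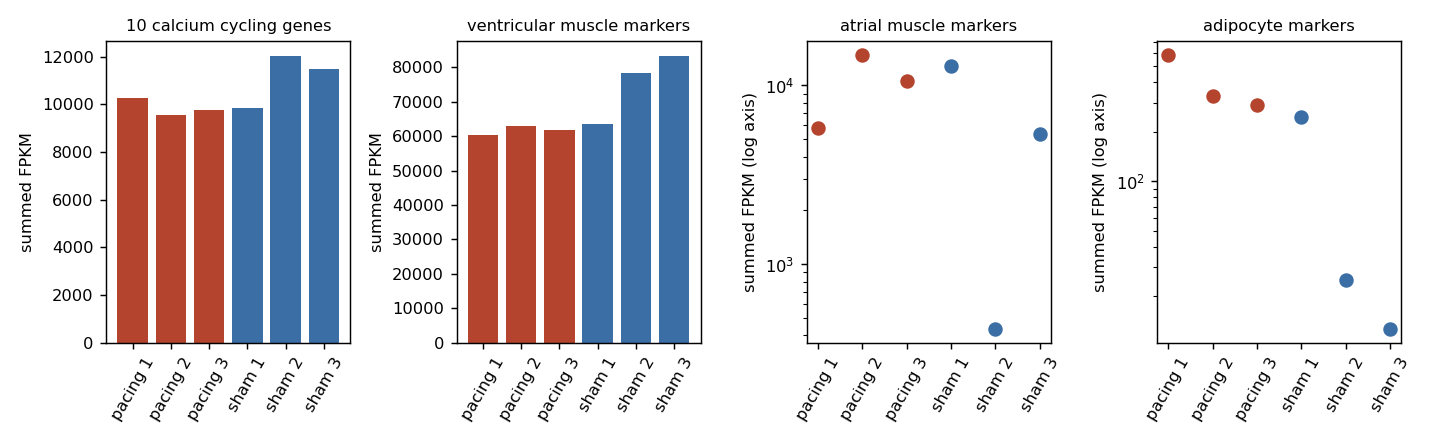
Summed FPKM by mouse of the 10 calcium cycling genes, 9 ventricular muscle markers, 8 atrial muscle markers and 7 adipocyte markers, paced mice in red on the left and sham mice in blue on the right, with log axes for the last 2 panels. Sham 1 stands close to the paced mice in all 4 panels, and sham 2 and sham 3 stand above all paced mice in the first 2 and below them in the last 2.

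The direction of most members turned with the marker scaling only, while 9 or 10 of the 10 stayed negative under the other scalings. The median log2 fold change of the 10 genes was -0.17 as deposited, -0.10 after rescaling to the same sum of FPKM, -0.20 after centring on medians and -0.11 after quantile normalization. Jph2 turned positive with the same sum (0.04) and S100a1 with quantile normalization (0.0070). Scaled to the geometric mean of the 9 ventricular muscle markers, the median of all genes tested shifted to 0.23 and that of the members to 0.09, with Ryr2 the member that kept a negative value (-0.03). Relative to the median of all genes the members thus lay at -0.17 as deposited, at -0.13 with the marker scaling and at -0.089 with quantile normalization. No member passed the adjusted limma test in any of these scalings, and Jph2 came closest with the marker scaling (log2 fold change 0.23, limma adjusted p = 0.158). The split of all genes at an unadjusted p under 0.05 was 620 higher and 442 lower as deposited, 968 and 148 with the same sum, 514 and 609 after centring, 537 and 581 after quantile normalization, and 3339 and 10 with the marker scaling.

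**Figure D5:**
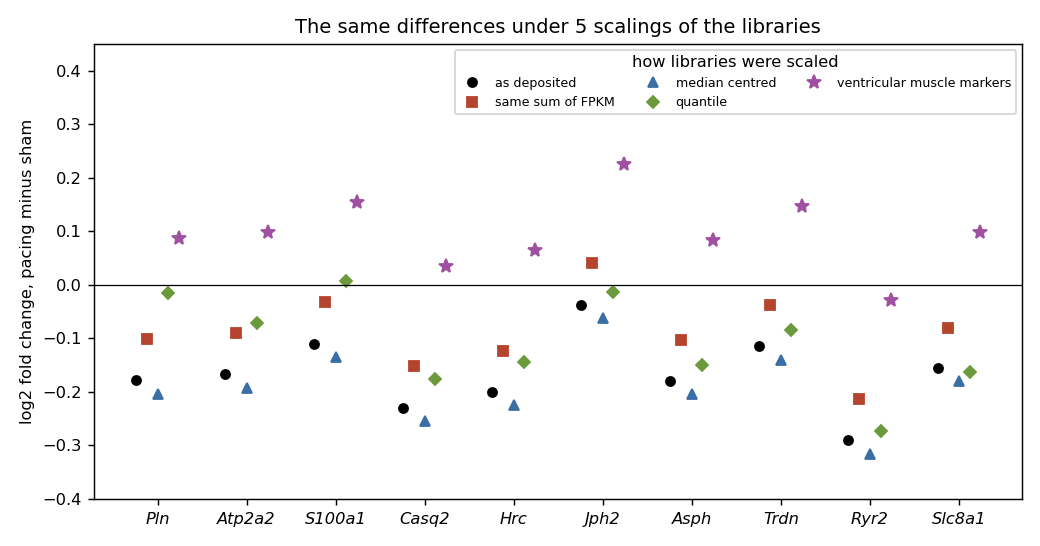
Log2 fold change, pacing minus sham, of each calcium cycling gene with the libraries as deposited and under 4 other scalings. All 10 are negative as deposited and after centring on medians, while Jph2 is positive with the same sum and S100a1 with quantile normalization. When scaled to 9 ventricular muscle markers, 9 of 10 are positive, all but Ryr2. That scaling, chosen after seeing the data, also raises the median of all genes tested to 0.23.

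The wider calcium handling machinery was followed in a list of 65 further genes, of which 63 are in the table and 58 were tested. None of the 58 passed the adjusted limma test. At an unadjusted p under 0.05, 4 were higher and 3 lower, against 5.17% and 3.69% of all genes, and the median log2 fold change was -0.04. The paced values lay below all sham values for 10 of 58 and above them for 4 of 58, against 6.97% and 6.24% of all genes. Their values under other scalings were not computed.

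Sarcalumenin, Srl, a calcium binding protein of the sarcoplasmic reticulum membrane that steadies SERCA2, had the smallest p of the list. It had 210, 237 and 215 FPKM in paced mice 1, 2 and 3, against 256, 294 and 275 FPKM in sham mice 1, 2 and 3, with no overlap (log2 fold change -0.32, SE 0.088, limma adjusted p = 0.414). The next lowest p on the negative side were those of Hspb6, the small heat shock protein Hsp20, with 711 ± 39.8 FPKM in paced mice and 829 ± 44.0 FPKM in sham mice, and of Cacnb2, a subunit of the L-type calcium channel, with 18.5 ± 0.42 FPKM in paced mice and 22.2 ± 2.9 FPKM in sham mice. Cav3, the caveolin of muscle membranes, had 75.4 ± 3.3 FPKM in paced mice and 84.8 ± 4.18 FPKM in sham mice. Prkar1a, a regulatory subunit of protein kinase A, had 120.5 ± 3.13 FPKM in paced mice and 139 ± 15.1 FPKM in sham mice. The groups of all 4 did not overlap, and none of them passed (limma adjusted p between 0.540 and 0.585).

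On the positive side S100a4, a calcium binding protein of fibroblasts and white blood cells, had 33.6 ± 6.5 FPKM in paced mice and 20.6 ± 6.57 FPKM in sham mice (log2 fold change 0.71, SE 0.23, limma adjusted p = 0.476). S100a6, of the same family, had 96.4 ± 14.1 FPKM in paced mice and 76.6 ± 19.1 FPKM in sham mice. Atp2a3, the SERCA3 pump of non-muscle cells, had 5.93 ± 0.92 FPKM in paced mice and 4.37 ± 0.29 FPKM in sham mice. Bin1, which shapes the membrane tubules of muscle, had 6.30 ± 0.40 FPKM in paced mice and 4.84 ± 0.87 FPKM in sham mice, and Orai3, a store-operated channel subunit, had 17.3 ± 0.53 FPKM in paced mice and 15.0 ± 1.0 FPKM in sham mice. The groups of S100a4, Atp2a3, Bin1 and Orai3 did not overlap, while those of S100a6 did. Beside these stand the 6 fibroblast markers, which summed to between 831 and 1133 FPKM in paced mice and between 681 and 836 FPKM in sham mice, and the 4 macrophage markers, at 279 to 371 FPKM in paced mice and 184 to 300.1 FPKM in sham mice. Their part in these values was not tested.

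Other parts of the trigger and its control did not pass the test either. Cacna1c, the pore of the L-type channel that opens the release channel, had 16.8 ± 2.62 FPKM in paced mice and 17.4 ± 4.37 FPKM in sham mice (log2 fold change -0.03, 95% limits -0.42 to 0.36). Camk2d, a calcium-activated kinase that acts on phospholamban and the ryanodine receptor, had 27.6 ± 0.65 FPKM in paced mice and 30.4 ± 2.87 FPKM in sham mice, with no overlap (limma adjusted p = 0.711). Fkbp1b, a partner protein of the ryanodine receptor, was low at 2.11 ± 0.51 FPKM in paced mice and 1.70 ± 1.27 FPKM in sham mice. Stim1, a sensor of the store, had 7.84 ± 0.64 FPKM in paced mice and 7.24 ± 0.27 FPKM in sham mice. Itpr2, a channel of the store that opens with inositol trisphosphate, had 2.50 ± 0.29 FPKM in paced mice and 2.73 ± 0.11 FPKM in sham mice. The skeletal muscle forms were low, with Ryr1 at most at 0.033 FPKM in any mouse, Atp2a1 at 0.93 ± 0.38 FPKM in paced mice and 0.44 ± 0.18 FPKM in sham mice, and Casq1 at 11.2 ± 4.19 FPKM in paced mice and 11.4 ± 4.52 FPKM in sham mice. Cacna2d1 has a failed value in sham 2 and was not tested.

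The authors' deposited table gives 1 value per group from their own fit and lies close to these means. It lists Ryr2 at 57.8 FPKM in the pacing group and 71.3 FPKM in the sham group with a q-value of 0.491, the lowest of the members, and Casq2 at 544 FPKM in the pacing group and 637 FPKM in the sham group with a q-value of 0.812. The authors' deposited table lists Atp2a2 at 2941 FPKM in the pacing group and 3313 FPKM in the sham group, and Pln at 4089 FPKM in the pacing group and 4641 FPKM in the sham group, both with a q-value of 0.998. The log2 ratios of the authors' group values ran from -0.30 for Ryr2 to -0.04 for Jph2 in the authors' deposited table.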

How the data were processed

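Ventricles of 6 mice were frozen, and polyA RNA was made into stranded libraries and read from both ends, per the labels' protocols. The submitters' processing notes name the build mm10, the aligners Bowtie2 2.2.6 and TopHat2 2.1.0, Cuffdiff, Cufflinks and FastQC 1.0.0. The sources used here give no annotation, filter, strand setting or Cuffdiff options. The authors deposited FPKM per gene and mouse, with 0.01 where none is reported, and a table of group FPKM with a q-value (an adjusted p-value, per the file headers) and a call. Its fold column, with spreadsheet errors, was not used. Deposited starts count from 0 (8540 of 11740 genes that end where RefSeq ends start 1 base later there, 252 at the same base), so 1 was added. Without the strand setting, whether overlapping antisense fragments were separated is not known. FPKM is no count, so the 11994 genes that averaged 1 FPKM or more were fitted as log2(FPKM + 1) by limma 3.58.1, run in R 4.3.3 (eBayes with trend, group only, two-sided, adjusted p under 0.05). The p-values measure the spread between mice, taken as separate animals from the series design, and at most 0.0083% of values above the floor were identical in 2 libraries. Depth came from 595 genes with 1 exon, of which 36 to 53 values per library, under 6 fragments, were used. It was chosen to make these values whole, so 100.0% of them lying within 0.05 of a whole fragment is no separate check. Ratios used exact permutation tests. On simulated data with 11994 genes and 3 mice a group, the pacing against sham test recovered 84.6% of log2 changes of 1. Those changes were placed only in genes whose spread was under 2 times the median, and noise was independent between genes. Shifts shared by many genes in 1 mouse were not simulated, so the figure may overstate what these data recover. Members and lists were chosen with earlier results of these data known. Named were all members, 5 genes of the wider list with the smallest p in each direction, a fixed set of calcium genes (1 of which is not reported here), 4 tissue markers and the 3 genes most like Atp2a2 and Ryr2. Marker lists of endothelial, smooth and skeletal muscle and red cells were also summed. Alternatives were other pseudocounts (0.1, 0.5), filters (none, 5), scalings and eBayes settings, an adjusted p under 0.1, a block by replicate number and leaving out mice. Scaling to ventricular markers was added after seeing the data.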

Additional observations from a re-analysis of the deposited data

How the results depend on the processing

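No member passed the adjusted threshold in any alternative fit that kept more than 1 mouse in each group. Over 18 alternative fits, 167 of 180 member values kept their direction and 13 turned. The filters, the eBayes settings and the replicate block cannot change a member's fold change. Their part of the 167 was thus fixed in advance, and the other pseudocounts moved the values little. Scaled to ventricular muscle markers, an alternative chosen after seeing the data, the log2 fold changes were 0.10 for Atp2a2, 0.087 for Pln, 0.036 for Casq2, 0.10 for Slc8a1, 0.23 for Jph2, 0.15 for Trdn, 0.064 for Hrc, 0.083 for Asph and 0.16 for S100a1. That follows from its construction, since the markers differed by more on average than the members. Jph2 also turned with the same sum of FPKM (0.040) and without pacing 2 and pacing 3 (0.011), and ran from -0.10 to 0.018 with each mouse left out. S100a1 turned with quantile normalization (0.0070). Leaving out each mouse, the pacing minus sham difference in the log2 ratio of Pln to Atp2a2 ran from -0.11 to 0.049, of Casq2 to Ryr2 from -0.10 to 0.20 and of Slc8a1 to Atp2a2 from -0.11 to 0.11. Without pacing 2 and pacing 3 the differences in the last 2 ratios were -0.20 and -0.20. Genes called over the whole table numbered 0 higher and 0 lower, but 1 higher with robust eBayes and 2 with the marker scaling. With each mouse left out they ranged from 0 to 99 higher, namely 99 without sham 1, 7 without pacing 1, 1 without pacing 3 and 0 otherwise, and from 0 to 1 lower. The replicate numbers were not taken as pairs, and deviations of same-numbered mice correlated at -0.13, -0.022 and -0.020. Deviations from the mean of only 3 mice constrain each other, so these values cannot exclude pairing. With a replicate block 7 genes were higher, none of them a member, and the log2 difference of Pln over Atp2a2 was -0.012 as before. Simulated log2 changes of 1 were recovered at 84.6%, with independent noise and no change placed in the most variable genes. The members' values of -0.29 to -0.04 are smaller in size than any change simulated.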
